A study of Mus musculus with 4 samples.

Results

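Gene expression in tracheal EGFP-positive cells was compared with that in Tomato-positive tracheal cells of Tas2r143-reporter mice, with attention to gene families and functions beyond the known markers of taste, tuft, club and basal cells. The comparison rests on 2 of the 4 RNA-seq libraries of the series, chosen by the tissue in the sample title, and each side is 1 library without a replicate. Both libraries came from Tas2r143-CreERT2;Rosa26flox-mT-stop-flox-mG mice, in which a BAC transgene places the tamoxifen-dependent recombinase CreERT2 under the Tas2r143 promoter and recombined cells, with their progeny, exchange the red protein Tomato for EGFP. All mice, those that gave the Tomato-positive cells included, carried both alleles and received 1 mg tamoxifen per day for 5 days, and trachea was taken 5 days after the last dose. Cells of 3 mice of 1 transgenic line were pooled per library. The EGFP gate took every live cell with EGFP, live meaning free of DAPI, whereas the live Tomato-positive cells also had to carry EpCAM, a surface protein of epithelial cells, and to lack EGFP. The title and the tissue field of each sample name opposite tissues, and the title was followed. In the Tomato library titled trachea the airway genes Cyp2f2 and Bpifa1 were at 337775 and 882310 normalized counts, against 69 and 3 in the Tomato library titled stomach, which runs the way the titles say.

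Tuft cells, also called brush or solitary chemosensory cells, are rare epithelial cells of the airway that carry taste receptors together with a G protein, phospholipase C and TRPM5 cascade. They are known to release acetylcholine, lipid mediators and the cytokine IL-25 toward nerves and immune cells. Around them stand club cells, which secrete protective proteins and metabolise foreign compounds, ciliated cells, which move mucus, and basal cells, which are the stem cells of this epithelium.

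Normalized counts, the reads of a gene divided by a factor for each library, summed to 9979293 (EGFP library) and 14867900 (Tomato library). Judged from the gaps between low values, each read had added about 1.61 (EGFP) or 0.809 (Tomato) to a gene, which makes about 6.20 M and 18.4 M assigned reads. A floor of 3 reads, worth 4.83 (EGFP) and 2.43 (Tomato) normalized counts, was used for genes at or near 0. All 37 mitochondrial genes, which every cell uses, were listed at 0 in both libraries, so that a listed 0 need not mean that a gene was low. Relative expression was taken as log2((EGFP + 1)/(Tomato + 1)), over the 10523 genes at 50 or more normalized counts in either library. Genes with a log2 of at least 2 are named higher and those with a log2 of -2 or below are named lower, a rule of size that stands in place of a test, because single libraries have no spread between replicates. By this rule 2651 genes were higher, 25.2% of those tested, and 3411 were lower, 32.4%. The median over all tested genes was -0.32. When both libraries were scaled to the same total, 0.58 was added to the log2 of a gene well above 0, and 3284 genes were higher and 3027 lower. The Tomato library stood at 0 for 944 of the higher genes and the EGFP library at 0 for 1719 of the lower genes. Among the 2358 genes at 1000 or more in the Tomato library, 274 stood at 2 or less in the EGFP library, and among the 2157 genes at 1000 or more in the EGFP library, 131 stood at 2 or less in the Tomato library. Of the 157 genes just under the minimum, at 45 to 49 normalized counts, 47 would have been higher and 70 lower, against 50 higher and 81 lower of the 164 genes at 50 to 54.

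**Figure D1:**
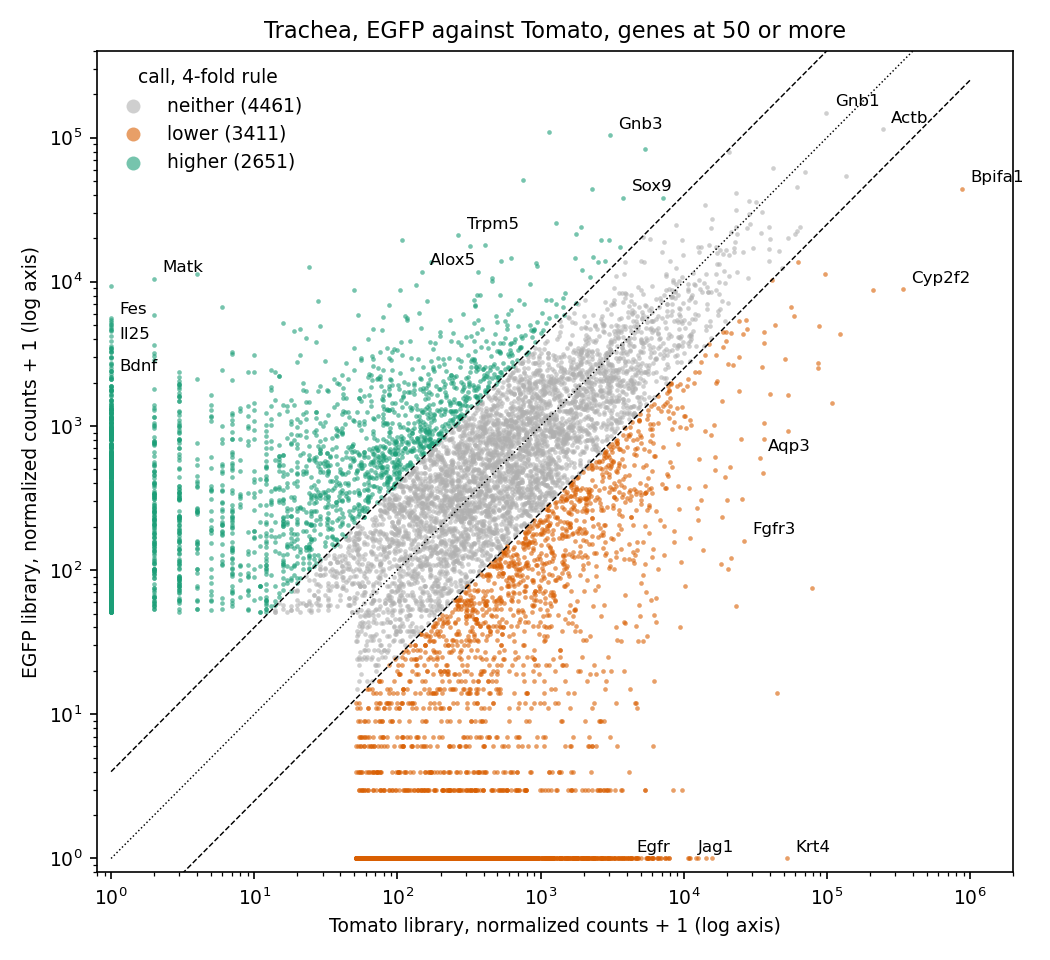
Each point is 1 of the 10523 genes tested in the trachea, with normalized counts + 1 of the Tomato library on the horizontal and of the EGFP library on the vertical log axis, so that a gene listed at 0 stands at 1. Dashed lines mark the 4-fold rule and the dotted line equal values, and the 2651 higher and 3411 lower genes form dense bands at 0 of the other library, with Fes, Il25 and Bdnf on the left edge and Krt4, Jag1 and Egfr on the lower edge.

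The labels were checked against defining genes of each cell type. Values are given in normalized counts throughout, the EGFP library first and the Tomato library second, with 95% intervals of ratios from the exact binomial distribution of estimated reads. Avil, an actin-bundling protein of tuft cells, was at 19477 and 107, a ratio of 182 (154 to 218). The channel gene Trpm5 was at 21065 and 265, and the tuft cell transcription factor Pou2f3 at 4148 and 300. Cyp2f2 of club cells was at 8937 and 337775 and the basal cell keratin Krt5 at 109 and 18168. Of 14 tested tuft cell genes all were higher, and all 10 club and all 9 basal cell genes were lower, so that both labels held for these types. Of the 15 ciliated cell genes in the table, 10 were tested, 1 was higher and 7 were lower. The ciliated cell regulator Foxj1 was listed at 0 and at 1 normalized count, and Dnah9 and Spag6 at 0 in both libraries, while the axonemal dynein gene Dnah5 was at 0 against 1906 and the microtubule protein gene Tppp3 at 1736 and 7853, so that ciliated cell genes did not share 1 level in Tomato-positive cells. The ionocyte genes Foxi1, Cftr and Ascl3 and the neuroendocrine genes Chga and Chgb stood at 0 in both libraries.

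Markers of cells outside the epithelium were present on both sides. Of 15 B and plasma cell genes in the table, 7 were tested, with 4 higher and 2 lower and a sum of 32667 normalized counts in the EGFP library against 3546 in the Tomato library. Igha, the constant region of IgA, was at 11389 and 3, Jchain at 5156 and 15, and Cd79b at 1386 and 1. Constant regions of other immunoglobulin heavy chains went the other way, with log2 of -7.60 and -10.27. Cd79a, Ms4a1 and Mzb1 were listed at 0 in both libraries. Of 21 myeloid genes 14 were tested and 13 were lower, with sums of 1229 and 69181, and Itgam, Adgre1 and Fcgr1 were at 0 in both. All 9 tested fibroblast genes were lower, with sums of 480 and 26194. Of 22 genes of T cells, NK cells and innate lymphoid cells 5 were tested, with 1 higher and 3 lower and sums of 1111 and 2253. Cd3e, Cd4, Cd8a and Lck were at 0 in both libraries, but the constant region of the T cell receptor alpha chain was lower, with a log2 of -10.51. Of 9 salivary and thyroid tissue genes in the table, 3 were tested and all 3 were lower, with sums of 0 and 3711. The part of these cells and tissues in the family results that follow was not tested, and fewer cells of a type and less RNA per cell cannot be told apart in pooled RNA.

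The 15 largest log2 values did not belong to taste genes. They followed mostly from the EGFP level, because the Tomato side stood at 0 or 1. Of the 15 genes with the largest log2, each at 3491 or more normalized counts in EGFP-positive cells, 14 were listed at 0 in Tomato-positive cells and 1, Matk, was at 1 normalized count. They held the kinases Fes (5415 normalized counts) and Matk (10529), the inositol phosphatase gene Inpp5j (4674), the inhibitory receptor gene Cd300lf (4562), the sulfotransferase gene Chst2 (5262), the netrin receptor gene Unc5d (5117), the sphingolipid desaturase gene Degs2 (5019), the cytokine gene Il25 (4608), the membrane protein genes Ms4a15 (4190), Vsig2 (3893) and Tmem45b (3491), and 4 noncoding or unclassified transcripts described further on. The 15 smallest were all listed at 0 in EGFP-positive cells. They held the keratins Krt4 (52247 normalized counts in Tomato-positive cells), Krt14 (15835), Krt13 (14217) and Krt6a (7831), the uroplakin gene Upk1b (12621), the Notch ligand gene Jag1 (11041), the aldehyde dehydrogenase gene Aldh3a1 (10667), and also Amotl1, Gid4, Anxa8, Itpripl1, Dmbt1, Ecm1 and S100a10 at 6777 to 12271. High EGFP levels with large ratios were also seen for Lrmp (109136 and 1150), Mn1 (82885 and 5343), Enc1 (50668 and 747) and Hepacam2 (12690 and 23), which were chosen after their values were seen.

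Sequence near the start of genes was examined because Pou2f3, higher in EGFP-positive cells, belongs to the POU factors, which bind the octamer ATGCAAAT. The RefSeq promoters of GRCm38.p6, each 250 bases before to 50 bases after a start, were matched by symbol for 7821 tested genes with 9994 promoters. Searched on both strands, the octamer stood in 51 of 2399 promoters of higher genes (2.13%), in 31 of 3184 of lower genes (0.974%) and in 57 of 4411 of the genes called neither (1.29%), against 1.74% of all 32851 promoters. The motif of the AP-1 factors, TGACTCA, stood in 3.71%, 5.15% and 3.17% of the same 3 groups, and the PU.1 motif GAGGAAGT, known from leukocyte and tuft cell Spi factors, in 2.63%, 3.30% and 2.92%. For the RUNX motif TGTGGTTT the shares were 1.0%, 1.13% and 1.09%. Of these motifs the octamer alone had a larger share among higher genes than among both other groups, and such a match is a description of the letters in these windows. Stretches of 30 bases around it are shown for genes described further on, to set the motif of higher genes beside that of lower ones, with the octamer or its reverse complement in capitals and read 5′ to 3′ on the strand of the gene. Those of higher genes are from chr3:60081810-60081839 on the plus strand for Sucnr1, chr1:144567849-144567878 on the minus strand for Rgs21, chr12:89812391-89812420 on the plus strand for Nrxn3, chr1:93373711-93373740 on the plus strand for Ano7 and chr4:64047113-64047142 on the minus strand for Tnc. Those of lower genes are from chr19:20601901-20601930 on the plus strand for Aldh1a1 (55 and 23075) and chr3:83766263-83766292 on the plus strand for Sfrp2.
Sucnr1: ggctgcataatATGCAAATcagactgcact
Rgs21: catatgaagccATGCAAATacgaccttcag
Nrxn3: cggagtgcgttATTTGCATatgacttgccc
Ano7: aggcacctcgaATTTGCATgtagggtgtgt
Tnc: ctataaattgtATGCAAATggtccgttagc
Aldh1a1: catatcccgatATGCAAATgacccttagtg
Sfrp2: tccacctccagATTTGCATaaaaaaggcca
The same window occurs at Aldh1a7, a near copy of Aldh1a1. In these promoters the motif begins 48 bases before the start of Sucnr1, 200 before that of Rgs21, 81 before that of Nrxn3, 174 before that of Ano7, 116 before that of Tnc, 56 before that of Aldh1a1 and 47 before that of Sfrp2.

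**Figure D2:**
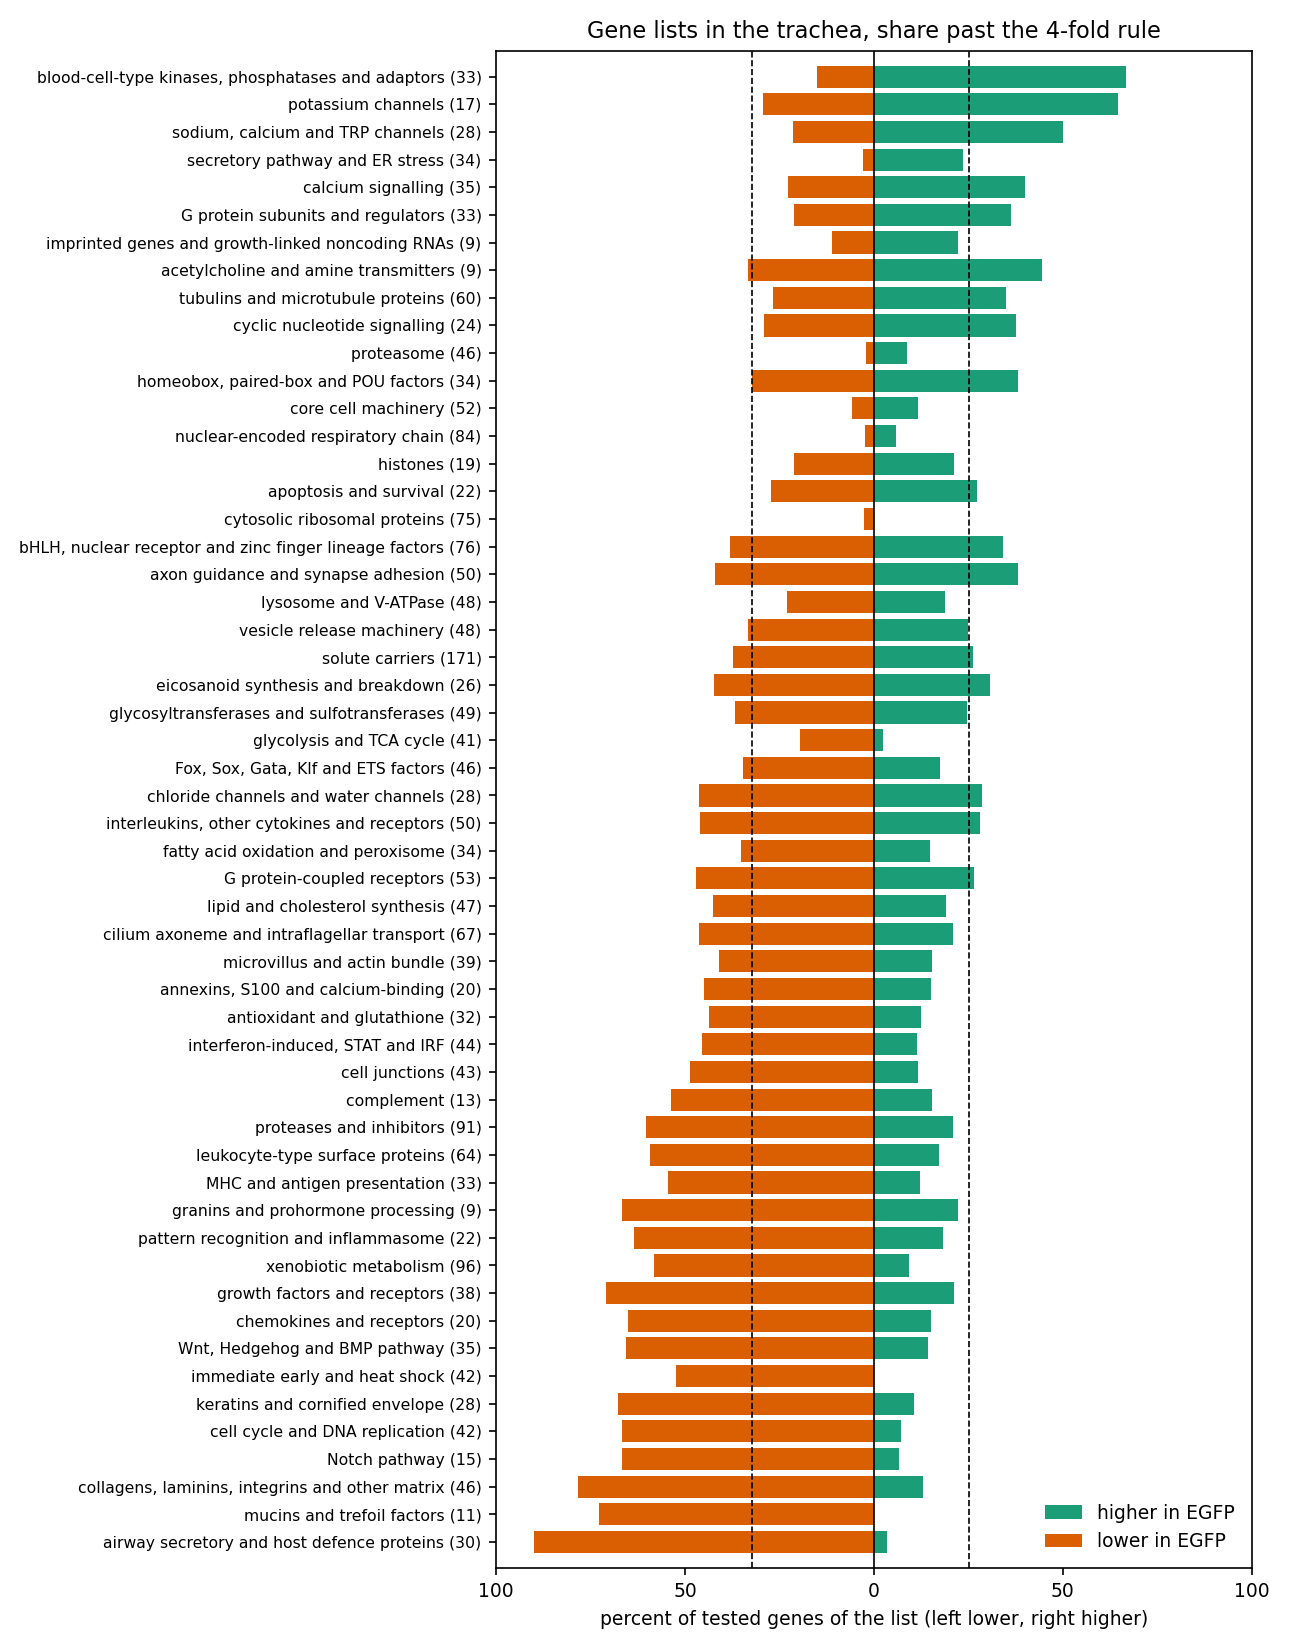
Bars show, for each gene list with at least 9 tested genes outside the cell type lists, the percent of tested genes that were higher (right) or lower (left) in EGFP-positive cells of the trachea, with the number tested in parentheses. Dashed lines are the shares among all tested genes, 25.2% higher and 32.4% lower, and kinases known from blood cells, potassium channels and sodium, calcium and TRP channels reach furthest to the right, airway secretory proteins furthest to the left. Of the 17 potassium channels, 9 stood at 0 in the Tomato library and passed the minimum only through the EGFP library.

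The counts of each list that follows stand against 25.2% higher and 32.4% lower among all tested genes. A gene at 0 in 1 library passed the minimum only through the other library, which fixed its call. Kinases, phosphatases and adaptors that are best known from blood cells had the largest share of higher genes among lists with at least 9 tested genes outside the cell type lists. Of 64 such genes listed 33 were tested, 22 were higher and 5 lower, and the median log2 was 3.62, the same with genes under 3 reads set to the floor. Ptpn6, the phosphatase SHP-1 that ends signals of immune receptors, was at 13609 and 172, a ratio of 79.1 (68.9 to 90.9). The tyrosine kinase genes Fes and Matk and the phosphatase gene Inpp5j have been given above. Sh2d6, an adaptor of the BLNK family, was at 10573 and 458, and Ptprc, the leukocyte surface phosphatase CD45, at 338 and 1. The exchange factor gene Vav1 was at 6787 and 350, the TEC family kinase gene Bmx at 4415 and 358, the phosphatase gene Ptpn18 at 10172 and 455, and the phosphoinositide 3-kinase subunits Pik3r5 at 3240 and 74 and Pik3cg at 2876 and 688, all 5 chosen after their values were seen. Not all members followed this direction. Blnk, an adaptor of B cell receptor signaling, was called neither at 3278 and 1686, as was Jak1, a kinase of cytokine receptors, at 2198 and 3467. Vav3 was lower at 309 and 1473, Trib2 at 259 and 2121, and Coro1a, an actin regulator of lymphocytes, was listed at 0 against 557. Of the 22 higher genes 20 were also tested in the stomach libraries of the series, which are again 1 pooled library a side. Of these 20, 19 were higher there too, while 23.2% of all genes higher in the trachea and tested in the stomach were. The list was chosen with earlier results of these data known, so neither its rank among lists nor this share is independent support.

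**Figure D3:**
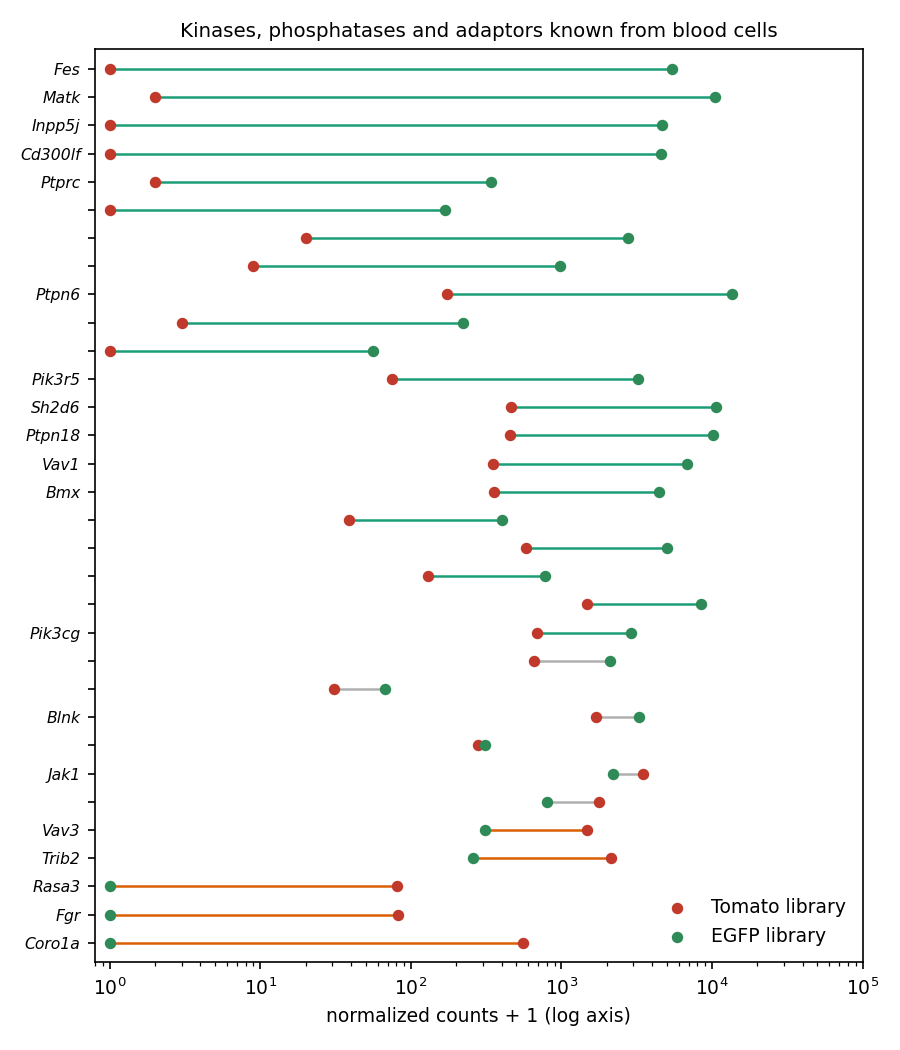
Each line is 1 of 32 tested kinases, phosphatases and adaptors known from blood cells, named on the axis where the text names it, with normalized counts + 1 on a log axis, a red point for the Tomato and a green point for the EGFP library, and green lines for genes called higher, orange for lower and grey for neither. The 21 green lines end at high EGFP values, while Coro1a, Fgr and Rasa3 stand at 1 on this axis, which is 0 normalized counts, in the EGFP library.

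Surface proteins of leukocyte type went the other way as a list, with 11 of 64 tested genes higher and 38 lower. Among the higher genes were Ly6g6f, an LY6 family receptor (3267 and listed at 0), its neighbor Ly6g6d (1002 and 1), the lectin gene Clec4a1 (554 and listed at 0) and Cd79b of the B cell receptor. The integrin subunit gene Itgb7, which pairs with Itga4 or Itgae on lymphocytes, was at 9534 and 133, a ratio of 71.7 (61.5 to 84.4), whereas Itga4 was listed at 0 against 1083. Lower were also the leukocyte integrin genes Itgb2 (listed at 0 against 2286) and Itgax (0 against 1623) and the myeloid lectin gene Clec12a (0 against 5718). The tetraspanin gene Cd9 was lower at 4365 and 26008, and Cd47 (9160 and 4787) and Cd164 (1931 and 1856), which most cells carry, were called neither.

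Potassium channels, which set the resting potential and end excitation, were higher for 11 of 17 tested genes and lower for 5, with a median log2 of 6.67, or 5.75 with genes under 3 reads at the floor. Of 92 listed genes 75 were under the minimum. Of the 17 tested, 9 stood at 0 in the Tomato library and 4 at 0 in the EGFP library. These passed the minimum through 1 library only, which fixed their call, so the count and the median do not describe the family. In EGFP-positive cells the 2-pore family gene Kcnk7 was at 3464 normalized counts, the inward rectifier gene Kcnj2 at 1182, and the M-current gene Kcnq3 at 992, and all 3 were listed at 0 in Tomato-positive cells. Kcnq1, the pore subunit of an epithelial and cardiac channel, was at 1998 and 37, a ratio of 54.0 (40.01 to 73.7). Its epithelial partner subunit gene Kcne3 was listed at 0 against 1513, and the rectifier gene Kcnj13 at 0 against 425. Members of 1 family were thus found on opposite sides. Per kilobase of exon, Kcnq1 stood at 488 and 9.04 normalized counts.

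Sodium, calcium and TRP channels were higher for 14 of 28 tested genes and lower for 6, with a median log2 of 1.93. Beside Trpm5, the polycystin gene Pkd2l2 (870 normalized counts in EGFP-positive cells), the calcium channel beta subunit gene Cacnb1 (651) and the ATP release channel genes Calhm3 (638) and Calhm1 (570) were listed at 0 in Tomato-positive cells, and Calhm2 was at 783 and 1. The osmosensitive channel gene Trpv4 was lower at 24 and 800 and Pkd1, the receptor-like polycystin, at 24 and 1934. The ATP-gated channel gene P2rx4 and the Tmc family gene Tmc4 were called neither, at 1494 and 993 and at 2977 and 1959. Tmc5 and Tmc7 were listed at 0 in EGFP-positive cells against 372 and 305.

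Chloride and water channels were higher for 8 of 28 tested genes (28.6%), a share near that of all genes, and lower for 13 (46.4%). The endosomal exchanger gene Clcn4 was at 5626 and 116, a ratio of 48.5 (41.1 to 57.9), and Clic6, an intracellular chloride channel protein, at 7342 and 161. The scramblase and channel genes Ano7 and Ano6 were higher at 905 and 2 and at 1045 and 81, but Ano1, the calcium-activated chloride channel of secretory epithelium, was listed at 0 against 1387. Water channels were lower for the 3 with most normalized counts, with Aqp3 at 602 and 33930, Aqp5 at 0 against 4283 and Aqp4 at 0 against 807, and Aqp11, an intracellular member, was at 303 and listed at 0. Clic1 was nearly equal at 2708 and 2451.

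**Figure D4:**
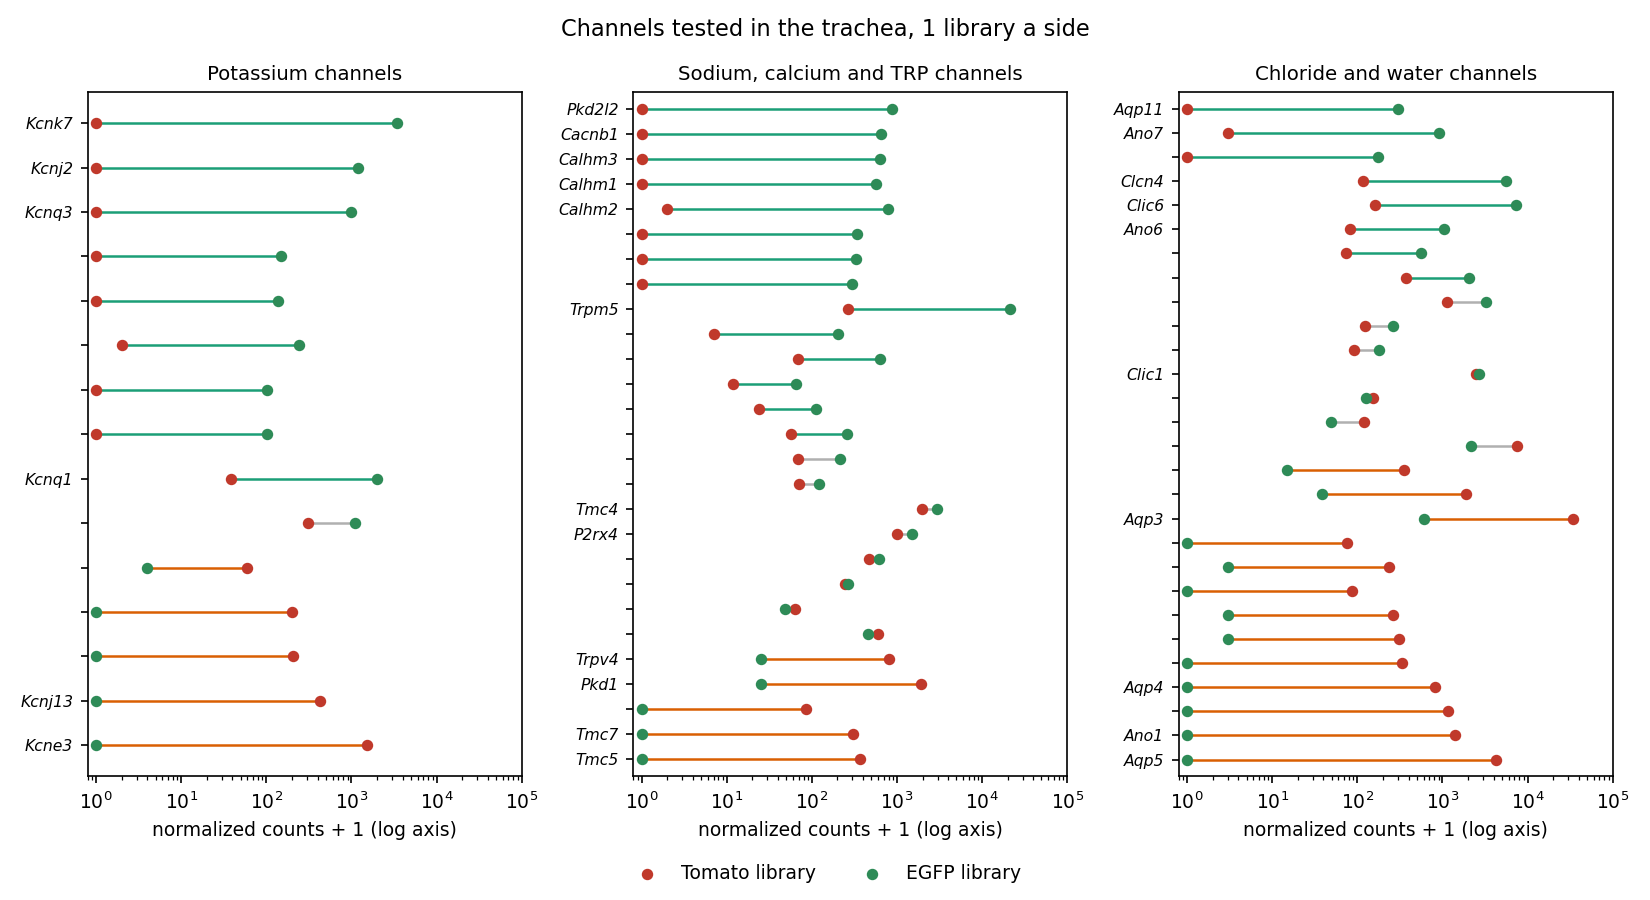
Lines join the Tomato (red) and EGFP (green) values of tested channel genes, named on the axis where the text names them, as normalized counts + 1 on a log axis, in 3 panels for potassium channels, for sodium, calcium and TRP channels and for chloride and water channels. Line color gives the call (green higher, orange lower, grey neither), and of those shown 9 of 15 potassium channels and 14 of 27 sodium, calcium and TRP channels were higher, against 8 of 28 chloride and water channels.

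G protein-coupled receptors were higher for 14 of 53 tested genes (26.4%), a share near that of all genes, and lower for 25 (47.2%). The alpha-2A adrenoceptor gene Adra2a was at 1742 normalized counts, the succinate receptor gene Sucnr1 at 1113, the Wnt receptor gene Fzd3 at 547 and the somatostatin receptor gene Sstr2 at 261 in EGFP-positive cells, each listed at 0 in Tomato-positive cells. The adhesion receptor gene Adgrf3 was at 1792 and 2. Gpr137b, a lysosomal protein of this superfamily, was at 5924 and 52, a ratio of 114 (89.4 to 149). Listed at 0 in EGFP-positive cells were the stem cell receptor gene Lgr6 (4303 in Tomato-positive cells), Gpr45 (2102), the platelet activating factor receptor gene Ptafr (627) and the adenosine receptor gene Adora2b (540). Lgr4 was called neither at 3578 and 12192. Of 1733 olfactory, vomeronasal, trace amine and Ms4a genes in the table, 7 were tested and 6 were higher. These 6 were at 0 in Tomato-positive cells and passed the minimum only through the EGFP library, which fixed their call. The count therefore does not describe the family. The olfactory receptor genes Olfr893 and Olfr12 were at 965 and 673 and Ms4a15 at 4190, with 0 in Tomato-positive cells, and the macrophage gene Ms4a7 was at 0 against 137.

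Downstream of the receptors, G protein subunits and regulators were higher for 12 of 33 tested genes and lower for 7. The regulators of G protein signaling Rgs21 (1167) and Rgs14 (931) were listed at 0 in Tomato-positive cells and Rgs13 was at 17643 and 322, a ratio of 54.8 (49.6 to 60.7). The Gq family divided, since Gnaq was lower at 1013 and 11283 and Gna15, the promiscuous alpha subunit, was listed at 0 against 879, while Gna11 was called neither at 8924 and 10673 and Gna14 at 945 and 1287. Calcium signaling genes were higher for 14 of 35 and lower for 8. Camk2g and Camk2b, subunits of calmodulin kinase II, were at 2377 and 2 and at 805 and 0, the buffer gene Calb1 at 948 and 0, and the pump gene Atp2a3, which refills the endoplasmic reticulum, at 11629 and 367. Orai3, a store-operated calcium channel, was at 1955 and 38, with its sensor gene Stim1 called neither at 717 and 1324. The IP3 receptor genes went apart, with Itpr2 at 1069 and 20 and Itpr1 at 2 and 3064. Plcb4, a phospholipase C, was at 2 and 3655. The calmodulin gene Calm2 was higher at 19319 and 2993, a ratio of 6.45. Cyclic nucleotide genes were higher for 9 of 24 and lower for 7, among them the phosphodiesterase genes Pde9a (543 and 0) and Pde4d (837 and 1) and the kinase anchor genes Akap9 (1475 and 22) and Akap10 (807 and 9), while Pde4b was at 11 and 243 and the adenylyl cyclase gene Adcy7 at 0 and 288.

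For mediators that tuft cells are known to release, only RNA of genes that make, break down or carry them was measured. Eicosanoid genes were higher for 8 of 26 tested genes and lower for 11. Higher were Alox5, the 5-lipoxygenase, at 11771 and 147, a ratio of 80.1 (69.0 to 93.1), Ltc4s, the leukotriene C4 synthase, at 7363 and 27, a ratio of 273 (196 to 401), and the phospholipase A2 genes Pla2g4a at 1348 and 122 and Pla2g4f at 1140 and 0. Ptgs1, the first enzyme of prostanoid synthesis, was at 5977 and 591. On the lower side were the prostaglandin E synthase gene Ptges (0 against 1367), the prostaglandin-degrading enzymes Hpgd (151 and 2171) and Ptgr1 (0 against 678), and the other lipoxygenases Alox15 (0 against 723) and Alox12 (0 against 393). The constitutive synthases Ptges2 and Ptges3 were called neither, at 921 and 1158 and at 16912 and 39167. Among 9 genes of acetylcholine and amine transmitters 4 were higher. Chat, which makes acetylcholine, was at 1137 and 162, and Slc44a4, which carries choline, at 4715 and 581, whereas the vesicular amine transporter gene Slc18a2 was at 19 and 1896 and the vesicular ATP transporter gene Slc17a9 at 0 against 466.

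Interleukins, other cytokines and their receptors were higher for 14 of 50 tested genes (28%), a share near that of all genes, and lower for 23 (46%). Beside Il25, its receptor gene Il17rb (985), the lymphocyte growth factor gene Il7 (589), the receptor of B cell factors Tnfrsf13b (2307) and the shared receptor chain gene Csf2rb2 (535) were listed at 0 in Tomato-positive cells. Il1r1, the interleukin-1 receptor, was listed at 0 in EGFP-positive cells against 4826, Lif at 0 against 851 and Il18r1 at 0 against 702. Il13ra1, a receptor of type 2 cytokines, was called neither at 2753 and 8919. Chemokines and their receptors were lower for 13 of 20, with Ccl20 (0 against 5491), Ccl21a (0 against 2626), Cxcl17 (3 and 4152) and Cxcl16 (2 and 2890). The receptor gene Cxcr6, whose ligand is CXCL16, was called neither at 489 and 239.

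Growth factors and their receptors were lower for 27 of 38 tested genes, with a median log2 of -6.31, or -4.76 with genes under 3 reads at the floor. Egfr was listed at 0 against 4085, Fgfr2 was at 2 and 2291, and Fgfr3 at 159 and 26310, which is 165-fold lower in EGFP-positive cells (136 to 203). Erbb3, the partner of the EGF receptor family, was at 518 and 8326. The 8 higher genes included the neurotrophin gene Bdnf (2190 and 0), the fibroblast growth factor genes Fgf9 (1900 and 0) and Fgf13 (288 and 0), the insulin-like growth factor receptor gene Igf1r (2175 and 310) and Met, the receptor of hepatocyte growth factor (403 and 44). The FGF ligand gene Fgf9 thus lay on the side opposite to the receptor genes Fgfr2 and Fgfr3. In the Wnt, Hedgehog and BMP pathway 23 of 35 genes were lower, with the ligand genes Wnt4 (0 against 1050) and Wnt7b (0 against 1154) and the Wnt inhibitor genes Sfrp1 (0 against 1380) and Sfrp2 (0 against 305). The transcription factor gene Tcf7l2 (8457 and 8674), the ubiquitin ligase gene Znrf3 (6135 and 5981), which removes Wnt receptors, and the intracellular BMP and TGF-beta genes Id2 (9568 and 11822) and Smad3 (1834 and 1467) were nearly equal. Notch pathway genes were lower for 10 of 15, with the ligand gene Jag1, the non-canonical ligand gene Dlk2 (0 against 2689) and the target genes Hes1 (18 and 2197) and Hey1 (0 against 659). Hes6, which opposes HES1, was the 1 gene of the list that was higher, at 2921 and 340.

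Genes best known from neurons were found on both sides. Among axon guidance and synapse adhesion genes 19 of 50 were higher and 21 lower. Unc5d, the protocadherin gene Pcdh19 (926), the guidance receptor gene Robo2 (871), the adhesion gene Ncam1 (813) and the presynaptic gene Nrxn3 (712) were listed at 0 in Tomato-positive cells. Lower were the ephrin receptor and ligand genes Ephb2 at 0 against 1701, Epha2 at 0 against 454, Ephb3 at 367 and 3269 and Efna5 at 4401 and 21420. For vesicle release, 12 of 48 genes were higher and 16 lower, shares near those of all genes. The vesicle genes Rab3b (916 and 0), Unc13a (291 and 0), Vamp2 (641 and 6) and Syn3 (2563 and 177) were higher, and Snap25, the plasma membrane SNARE of neurons, was listed at 0 against 362 and Snap29 at 0 against 685. Of prohormone genes 2 of 9 were higher, among them Scg5 at 338 and 0, and 6 were lower, with the calcitonin gene family members Calca at 0 against 287 and Calcb at 0 against 803.

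Among homeobox, paired-box and POU factors 13 of 34 tested genes were higher and 11 lower. The chromatin organizer gene Satb1 (2125) and the HoxA genes Hoxa7 (1601) and Hoxa9 (700), which mark position along the body axis, were listed at 0 in Tomato-positive cells, and Zfhx2 was at 3045 and 1. Hoxa7 lies at chr6:52214491-52221854 and Hoxa9 at chr6:52223100-52231089 of GRCm38, both on the minus strand. In the same cluster Hoxa5 was at 382 and 2, and the noncoding transcripts Hoxaas2 and Hoxaas3 at 1264 and 0 and at 288 and 87, which were chosen after their values were seen. The B cell factor gene Pax5 was at 280 and 0. Lower were Pax9 (5 and 3392) and Pax1 (0 against 2019), which pattern the foregut and pharynx, Tgif1 (0 against 1806), Otx1 (0 against 1180) and Dlx4 (0 against 1019). Cux1 was nearly equal at 1109 and 1012.

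Of Fox, Sox, Gata, Klf and ETS factors 8 of 46 were higher and 16 lower. Sox9, a factor of gland and progenitor cells and of cartilage, was at 38269 and 3777, a ratio of 10.1 (9.82 to 10.5). Of 6 tested cartilage genes, Sox9 among them, 2 were higher and 4 lower. Sox8 was at 889 and 0, the ETS factor genes Spib at 3104 and 20, Etv1 at 5191 and 341 and Etv3 at 1468 and 243. The epithelial ETS genes Ehf and Elf3 were called neither, at 8235 and 5201 and at 17351 and 12611. Foxo1 was listed at 0 against 1503, Klf11 was at 10 and 4711 and Klf6 at 919 and 14076. Among the other lineage factors 26 of 76 were higher and 29 lower, with Nfatc1, a calcium-regulated factor of lymphocytes, at 1143 and 1, Eya1 at 998 and 2, and the estrogen and mineralocorticoid receptor genes Esr1 at 258 and 0 and Nr3c2 at 269 and 0. The cyclic AMP-responsive factor gene Creb1 was at 2 and 5358, the thyroid hormone receptor gene Thrb at 0 and 1723, and Nr2f2, a nuclear receptor, was nearly equal at 8661 and 8756.

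Airway secretory and host defence proteins were lower for 27 of 30 tested genes and made up 0.671% of normalized counts in the EGFP library against 8.58% in the Tomato library. Bpifa1, an airway surface protein, was at 44284 and 882310, lactoferrin gene Ltf at 2512 and 86554, and Dmbt1, a mucosal scavenger protein, at 0 against 7427. Pigr, which carries IgA across epithelium, was called neither at 1625 and 1795. Chil1, a chitinase-like protein, was the 1 higher gene, at 829 and 156. Mucins and trefoil factors were lower for 8 of 11, with Muc4, Muc16 and Itln1 at 0 against 237 to 272 and Muc1 at 269 and 3210. Xenobiotic metabolism genes were lower for 56 of 96 and took 0.669% and 5.26% of the libraries. The aldehyde dehydrogenase gene Aldh1a7 was at 0 against 2407, the cytochrome genes Cyp2s1 and Cyp3a13 at 0 against 2288 and 1309, and the carbonyl reductase gene Cbr2 at 4900 and 88245. The 9 higher genes included Cyp2g1 (642 and 0), Cyp7b1, an oxysterol hydroxylase (583 and 0), and the carboxylesterase gene Ces2f (1802 and 101).

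Keratins and cornified envelope genes were lower for 19 of 28 and higher for 3. Krt15 was at 1436 and 108030 and Krt17 at 74 and 79085, both of basal cells, and the envelope gene Sprr1a was at 0 against 3706. The simple epithelial keratin Krt18 was at 79635 and 20834, a log2 of 1.93 just short of the rule of size, and so was called neither, and Krt19 was called neither at 27306 and 15869. Junction genes were lower for 21 of 43, with the connexin gene Gja1 at 0 against 553 and Marveld3 at 0 against 1566. The adherens and tight junction genes Cdh1 (2470 and 2876), Cldn7 (5979 and 4327), Cldn3 (3747 and 5221) and F11r (2744 and 2640) were called neither. Epcam itself, the gate of the Tomato sort, was higher in EGFP-positive cells at 5871 and 1450. Matrix genes were lower for 36 of 46, with Sparc (0 against 6493), Col6a1 (0 against 4761) and Col1a1 (0 against 3982), which fibroblasts also express, and Col17a1 (0 against 2768), the collagen of hemidesmosomes. The matrix genes Tnc (781 and 8) and Col22a1 (314 and 0) were higher.

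Cytoskeletal lists held single large differences beside abundant genes called neither. Of microvillus and actin genes 6 of 39 were higher, among them the bundling protein gene Espn (3810 and 26) and the intermicrovillar adhesion gene Cdhr5 (560 and 0), and 16 were lower, with the actin-sequestering peptide gene Tmsb4x at 816 and 36320 and the fimbrin gene Pls3 at 0 against 1573. Cfl1 (5333 and 6050), Pfn1 (4045 and 5947) and Twf1 (23483 and 27570) were nearly equal. Of tubulins and microtubule proteins 21 of 60 were higher and 16 lower. Higher were Dclk1 (6888 and 86), the tubulin genes Tubd1 (708 and 0), Tubg2 (461 and 0) and Tubb1 (293 and 0), and the tubulin-modifying gene Ttll5 (998 and 5), and Tubb5 was called neither at 2811 and 11061. Cilium genes were higher for 14 of 67 and lower for 31. Among the higher ones were Ccno (538), Spag1 (518), Rfx3 (362) and Cfap74 (317), all listed at 0 in Tomato-positive cells, and the lower ones held Dnah5 (0 against 1906), Spag17 (0 against 964) and Ift46 (121 and 21384).

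Immune recognition genes were lower more often than higher. MHC and antigen presentation genes were lower for 18 of 33 and higher for 4. The class II genes H2-Aa (2 and 8389) and H2-Eb1 (0 against 3106) and the invariant chain gene Cd74 (5 and 6144) were at or near 0 in EGFP-positive cells, together with the myeloid genes given above. The class I genes H2-D1 and H2-K1 were called neither, at 41076 and 23026 and at 10006 and 17753, and Mr1, which presents vitamin metabolites, was at 718 and 0. Interferon-induced, STAT and IRF genes were higher for 5 of 44 and lower for 20. Irf7 was at 747 and 17 and Irf9 at 990 and 203, against Ifitm1 at 0 and 5497 and Ifitm3 at 0 and 5503. Of 22 pattern recognition and inflammasome genes 14 were lower, with Casp4 at 0 against 4140, Casp12 at 0 against 1269 and the adaptor gene Pycard at 122 and 1951. The RNA sensor genes Ddx58 (380 and 0) and Ifih1 (327 and 61) and the caspase gene Casp8 (428 and 11) were among the 4 higher genes. Complement genes were lower for 7 of 13, and the regulator gene Cfi was at 1319 and 0.

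In lipid and cholesterol synthesis 9 of 47 genes were higher and 20 lower. Scd1, which desaturates fatty acids, was at 1489 and 2, Acly, which makes acetyl-CoA for them, at 1655 and 157, Sqle of cholesterol synthesis at 1406 and 164 and Acsl4, which activates arachidonic acid, at 19335 and 2653. The lipid carrier genes Clu (0 against 5625) and Apoe (3523 and 18700) and the exporter gene Abcg1 (3084 and 16718) were lower. Solute carriers were higher for 45 of 171 and lower for 64, shares near those of all genes, with Slc25a20, the carnitine carrier of mitochondria, at 1316 and 0 and the peptide transporter gene Slc15a2 at 0 against 4999. Antioxidant genes were lower for 14 of 32. The subunits of the enzyme that starts glutathione synthesis lay apart, with the catalytic Gclc at 2568 and 410 and the modifier Gclm at 0 against 3634. Of annexin, S100 and related genes 3 of 20 were higher and 9 lower. Anxa4 was at 43665 and 2279, a ratio of 19.2 (18.4 to 19.9), and Anxa10 at 380 and 0, whereas Anxa8, Anxa3 (4641), S100a10, S100a14 (5977) and S100a16 (6570) were listed at 0 in EGFP-positive cells. Of glycosyltransferases and sulfotransferases 12 of 49 were higher (24.5%) and 18 lower (36.7%), shares near those of all genes. Higher were Chst2, Galnt4 (1332 and 1), which starts O-glycans, and the fucosyltransferase gene Fut2 (341 and 0). Lower were St8sia6 at 0 against 2976 and Galnt5 at 0 against 1946. Proteases and their inhibitors were lower for 55 of 91, with the serpin genes Serpinb1a (2440) and Serpinb5 (2371) and the cathepsin gene Ctsz (2679) at 0 in EGFP-positive cells. The serine protease genes Prss30 (1486 and 0) and Prss32 (2531 and 72) were higher.

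Of 42 cell cycle and replication genes 28 were lower and 3 higher, with Ccnd2, the cyclin of G1 phase, at 100 and 20243, Cdk6 at 2 and 2870, Mcm6 at 2 and 2770 and Ccnb2 at 0 against 1985. The cell cycle inhibitors lay apart, with Cdkn1a lower at 118 and 3828 and Cdkn1b called neither at 4302 and 1667. Of 42 immediate early and heat shock genes, which tissue digestion can raise, none was higher and 22 were lower. Fosl2 was at 0 against 2069, Fosl1 at 2 and 1738 and Hspb8 at 0 against 3253, Fos was lower at 13693 and 62889, and Jun and Junb were called neither at 2319 and 3165 and at 7814 and 8287. Of 22 genes of apoptosis and survival 6 were higher (27.3%) and 6 lower (27.3%), shares near those of all genes. Bcl2l14 was among the higher (1895 and 0) and Bcl2l1, which encodes BCL-XL, among the lower (1968 and 16903).

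Of the housekeeping families most genes lay within the 4-fold rule, although their medians differed from each other. The median log2 was -0.93 over 75 ribosomal protein genes, of which none was higher and 2 were lower, and 0.24 over 84 nuclear genes of the respiratory chain, with 5 higher and 2 lower. For 46 proteasome genes it was -0.18, or 0.39 with both libraries scaled to the same total, with 4 higher and 1 lower, and for 34 genes of the secretory pathway 0.43, with 8 higher and 1 lower. Higher among the last were Ero1lb (1370 and 16), an oxidase, and the chaperone genes Dnajb11 (2317 and 104) and Creld2 (1307 and 79), while Hspa5, which encodes BiP, was nearly equal at 5513 and 5117. Of 52 genes of the core cell machinery, needed in any cell, 6 were higher and 3 lower, with the dynein motor gene Dync1h1 at 1048 and 90 and the clathrin gene Cltc at 615 and 6202, so that differences past the 4-fold rule also occurred among genes that every cell uses.

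Noncoding and unclassified transcripts were higher more often than protein-coding genes. Of the 9808 tested protein-coding genes 23.4% were higher and 32.7% lower, whereas the shares were 61.4% and 25.4% for 114 transcripts of the annotation class TEC, which still lack experimental proof, 50.6% and 34.3% for 172 lincRNAs, and 53.3% and 31.7% for 120 antisense genes. Gene types were not matched by level. The minimum takes fewer reads in the EGFP library, where a read was worth 1.61 normalized counts against 0.809 in the Tomato library. The part of level and depth in these shares was not tested. Of 10 tested immunoglobulin variable genes 9 were higher, as were Igha, Igkc (12790 and 948) and Jchain. The other heavy chain constant regions given above were lower. The 4 transcripts among the 15 largest log2 values were Gm15662 (9399 normalized counts), Gm16579 (5631), Gm44235 (4821) and 9130024F11Rik (3563), all listed at 0 in Tomato-positive cells. By the GENCODE annotation of GRCm38, Gm44235 lies within Ctnna2, an alpha catenin of neurons, on the same strand, and Ctnna2 was itself at 657 and 0. Gm16579 overlaps Tmprss11e, which was at 0 and 7. Of 280 higher noncoding genes 176 overlapped a protein-coding gene, and of the 125 with a tested one, that gene was higher for 48 (38.4%) and lower for 19 (15.2%). Of 65 lower noncoding genes with a tested partner, it was higher for 12 (18.5%) and lower for 26 (40%). The noncoding gene Gt(ROSA)26Sor, which marks the Rosa26 locus where the reporter allele was inserted, was at 1444 and 9, and its neighbor Thumpd3 on the opposite strand was at 415 and 635. Both were chosen after their values were seen. According to the paper, reads that fell on several genes or matched several places in the genome were left out of the counts. Whether strand was used in counting was not given in the sources used here. It is therefore not known whether reads from stretches shared by genes on opposite strands were counted or left out. The part of this rule in the values of overlapping genes was not tested.

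**Figure D5:**
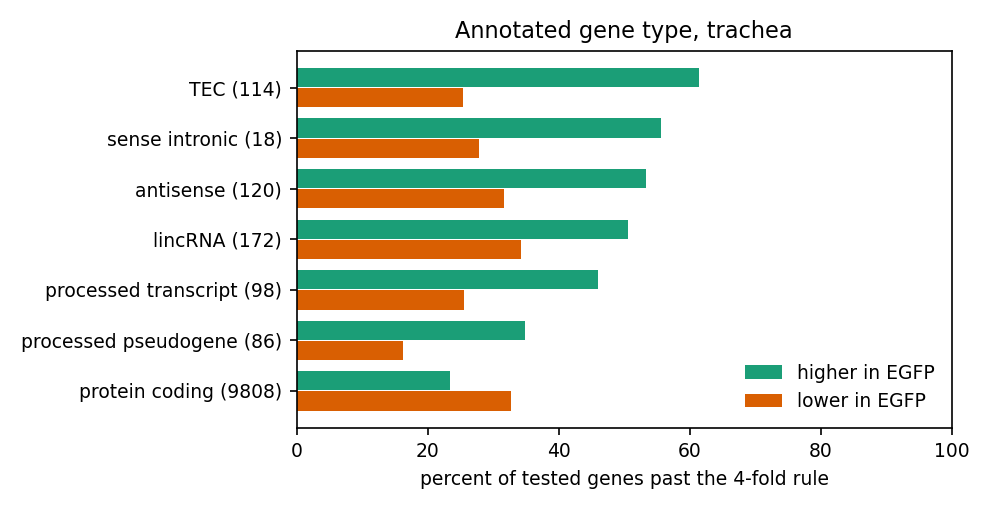
Bars give the percent of tested genes that were higher (green) or lower (orange) in EGFP-positive cells of the trachea for 7 annotated gene types, with the number tested in parentheses. Higher shares run from 23.4% for protein-coding genes to 61.4% for TEC transcripts, while lower shares lie between 16.3% and 34.3%.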

How the data were processed

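RNA of sorted cells was amplified with SMART-Seq v4 without molecular identifiers and sequenced by the authors, aligned to GRCm38 with STAR 2.4.0a and counted per gene with featureCounts 1.4.5-p1, versions as in the submitters' processing notes. The deposited signal of each gene is a normalized count, which the authors made from the reads by dividing by a factor for each library and rounding. The origin of the factors was not given in the sources used here. Such a factor moves the log2 of all genes of a library together.

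Of 48709 lines, 116 symbols stood on more than 1 line, of which the one with the largest sum over the libraries was kept. The members and the 73 gene lists were chosen with earlier results of these data known. Genes are named if they are 1 of 5 markers (Trpm5, Avil, Pou2f3, Cyp2f2, Krt5) or other cell type markers, or among the 15 largest or 15 smallest log2 at 200 or more normalized counts, or, within a list, among up to 5 in each direction past the 4-fold rule at that level, the 2 most abundant members in each library, or members at 1000 or more with less than a 2-fold difference. Any other gene is said to have been chosen after its values were seen. The worth of a read was estimated from the spacing of low values and the estimate was tested on simulated data. Intervals and the floor of 3 reads cover counting error only. No p-value is given, because each side is 1 library. No other column of per-sample values was left out. Overlaps come from the GENCODE annotation and sequences from RefSeq, both on GRCm38. Python 3.11.15, pandas 2.3.3 and scipy 1.17.1 were used, and 9 alternatives were run. A few members are counted in their lists but not reported here by name.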

Additional observations from a re-analysis of the deposited data

Results flagged for a closer look

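Some lists and genes described for the trachea lay past the 4-fold rule in the opposite direction in the stomach libraries of the series, and none of these differences between tissues was tested, since each rests on 1 library a side. The median log2 of ciliated cell genes was -3.05 over 10 genes in the trachea and 2.17 over 3 in the stomach. That of cartilage genes was -6.23 over 6 and 2.01 over 3. For potassium channels the median was 6.67 over 17 and -3.01 over 20, and for olfactory, vomeronasal and Ms4a genes 6.99 over 7 and -7.03 over 8. The members tested differ between the tissues, so that these medians do not rest on the same genes throughout. None of the olfactory, vomeronasal and Ms4a genes higher in the trachea was tested in the stomach. The medians are thus no measure of a reversal of a family.

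Of the potassium channel genes, Kcnj2 had a log2 of 10.21 in the trachea and -7.03 in the stomach. Among other genes of excitable or secretory cells this held for Ncam1 (9.67 and -4.10), Scg5 (8.41 and -5.67), Sstr2 (8.03 and -7.09), Syn3 (3.85 and -5.55) and Orai3 (5.65 and -2.85). The receptors of growth factors and cytokines Igf1r (2.81 and -7.15), Met (3.17 and -5.62) and Csf2rb2 (9.07 and -6.75) were higher in the trachea and lower in the stomach, as were Clec4a1 (9.12 and -4.23), Gpr137b (6.80 and -2.0), Scd1 (8.96 and -7.79), Tnc (6.44 and -5.93), Etv3 (2.59 and -2.52) and Dync1h1 (3.53 and -2.45). The reverse was seen for Fgfr2 (-9.58 in the trachea and 5.59 in the stomach), Thrb (-10.75 and 5.26), Itgb2 (-11.16 and 3.71), Coro1a (-9.12 and 2.07), Serpinb1a (-11.25 and 2.36) and Tppp3 (-2.18 and 2.17).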

How the results depend on the processing

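The counts of 2651 higher and 3411 lower genes stayed within 1.5 times under 8 of 9 alternatives and moved with a minimum of 500 normalized counts, which left 5256 genes with 1162 higher and 1459 lower. Of the 8, scaling by the median ratio of the trachea libraries could not move the counts. That median was already 1 over genes above 0 in both. Scaling to the same total turned the balance to 3284 higher and 3027 lower of 10760 genes, changed the sign of 7 of 73 list medians, among them those of solute carriers (-0.23 to 0.48) and of axon guidance and synapse adhesion genes (-0.11 to 1.25), and changed the call of 29 of 854 named genes. A minimum of 10 changed the sign of 3 list medians. At a minimum of 500 the sign changed for 12, with cilium genes going from -1.17 to 0.90, eicosanoid genes from -0.91 to 0.66, chloride and water channels from -1.55 to 0.14 and tubulins from 0.14 to -1.02. Past the 4-fold rule in both directions were mast cells and basophils (2.49) and cartilage (3.34) at that minimum, 1 gene each. With protein-coding genes only, an alternative chosen after seeing the data, the median of T, NK and innate lymphoid cells turned to 1.42 on 3 genes. Restricting the test to protein-coding genes left 2291 higher and 3211 lower. No paired analysis was possible because each group is 1 library, and no replicate could be left out. Assigned reads were 6.20 M against 18.4 M, so that low values are less precise in the EGFP library.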

Other observations

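Of the 1906 genes that were higher in the trachea and tested in the stomach, 442 (23.2%) were higher there as well and 251 were lower, while 1006 of the 8594 genes tested in both tissues (11.7%) were higher in the stomach. Of 2483 genes lower in the trachea and tested in the stomach, 827 were lower there.

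The most abundant transcript was Gnb1, a G protein beta subunit, at 148833 normalized counts or 1.49% of the EGFP library, and Bpifa1 at 5.93% of the Tomato library. The 10 most abundant genes took 8.65% and 15.7% of the libraries.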
